A study of Mus musculus with 8 samples.

Results

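Neuronal and epithelial splicing regulators were followed by symbol through 8 RNA libraries of sorted mouse skin cells: Nova1, Nova2, Elavl2, Elavl3, Elavl4, Rbfox1, Rbfox2 and Srrm4 on the neuronal side, and Esrp1 and Esrp2 on the epithelial side. All 10 were found among the 24538 gene rows of the count files and the 24453 rows of the FPKM table, and all 10 passed the filter on low counts that left 15151 genes. The 4 groups, with 2 libraries each, were paw Merkel, paw IFE, back Merkel and back IFE cells. Every animal was newborn (postnatal day 0) and carried Atoh1-GFP, a fluorescent tag on the transcription factor of Merkel cells, so controls carry it too. The label IFE is not spelled out in the sources used here. Merkel cells were gated as positive for GFP and EpCAM and negative for Sca1, whereas IFE cells were EpCAM-positive and Sca1-positive without GFP. Whether a group's 2 libraries came from separate animals is not stated in the labels, so the p-values may reflect technical spread alone.

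Merkel cells are touch receptors of the epidermis that arise from epidermal cells and share secretory and synaptic machinery with neurons. Alternative splicing differs between neurons and epithelia because each carries RNA-binding proteins that the other has little of. Nova proteins bind clusters of YCAY elements in neuronal transcripts, and Rbfox proteins bind GCAUG elements in neurons, muscle and many other cells. Elavl2, Elavl3 and Elavl4 bind AU-rich RNA and regulate both splicing and mRNA stability in neurons, whereas their relative Elavl1 is present in most cells. Srrm4 activates microexons in neurons, and Esrp1 and Esrp2 set the epithelial exon choice in genes such as Fgfr2. The values here are gene totals, so they show how much RNA of each regulator was present and not how any exon was spliced.

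The 7 Merkel markers passed the threshold at both sites. Their summed levels were 2292 to 3379 CPM in Merkel libraries and 8.58 to 17.3 CPM in IFE libraries. CPM are counts scaled by each library's total and its TMM factor. Library totals ran from 11139306 to 26195076 counts. The libraries of a group differed least in paw IFE (Pearson correlation of log2 CPM across genes 0.923) and most in paw Merkel cells (0.826). The 9 keratinocyte markers summed in paw Merkel libraries 1 and 2 to 25.4% and 6.45% of their mean in paw IFE cells, and in back Merkel libraries 1 and 2 to 7.11% and 6.13% of their mean in back IFE cells. These sums cover markers that differed. In paw Merkel library 1 Krt5 had 28324 counts, against 405375 and 281502 in paw IFE libraries. Krt10 had 53087 counts there, against 64931 and 112775, and Lor had 435, against 255 and 170. The second back IFE library was closer to both paw IFE libraries (correlations of 0.931 and 0.918) than to the first back IFE library (0.897). In these bulk samples fewer cells of a type and less RNA per cell cannot be told apart.

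Promoters are shown for 4 of the neuronal members whose levels were higher in Merkel cells at 1 or both sites. They are shown because the bHLH factor Atoh1, which marks these cells, binds E-boxes. Each sequence is the 250 bases upstream of a RefSeq start on the coding strand (GRCm38.p6), and capitals mark 3 E-boxes on either strand. These are CAGCTG, the form CATCTG favoured by proneural factors and the form CACCTG, and CAGATG is CATCTG read on the other strand. Of the 10 members 7 matched the promoter table, Rbfox2, Esrp1 and Esrp2 being the others. Elavl4 has 4 listed starts, and gene counts do not tell which was used. The second is shown; the first held no E-box of the 3, the third overlaps the second and holds the same 3 matches, and the fourth held 1.
Nova2 chr7:18925638-18925887 (+): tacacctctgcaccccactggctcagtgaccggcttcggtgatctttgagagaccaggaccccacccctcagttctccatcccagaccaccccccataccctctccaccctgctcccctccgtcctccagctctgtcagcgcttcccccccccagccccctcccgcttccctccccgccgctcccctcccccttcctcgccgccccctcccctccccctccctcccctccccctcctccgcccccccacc
Elavl3 chr9:22052024-22052273 (-): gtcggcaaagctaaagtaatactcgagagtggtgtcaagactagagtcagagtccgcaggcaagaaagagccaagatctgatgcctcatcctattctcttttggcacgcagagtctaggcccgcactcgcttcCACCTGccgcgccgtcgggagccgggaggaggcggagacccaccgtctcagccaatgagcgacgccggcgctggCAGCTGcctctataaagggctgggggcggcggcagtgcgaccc
Elavl4 chr4:110287528-110287777 (-): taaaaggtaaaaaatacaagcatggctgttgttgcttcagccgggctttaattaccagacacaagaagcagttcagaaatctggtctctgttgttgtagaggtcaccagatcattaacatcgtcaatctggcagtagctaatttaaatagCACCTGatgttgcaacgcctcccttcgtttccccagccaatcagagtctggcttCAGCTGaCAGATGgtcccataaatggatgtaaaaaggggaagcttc
Srrm4 chr5:116591818-116592067 (-): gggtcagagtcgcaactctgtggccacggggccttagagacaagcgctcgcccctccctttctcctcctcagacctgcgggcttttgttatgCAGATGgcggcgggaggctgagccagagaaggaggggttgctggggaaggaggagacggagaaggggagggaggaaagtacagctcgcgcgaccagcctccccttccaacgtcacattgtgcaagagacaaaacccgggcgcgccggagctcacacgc
Counted from the start site, Elavl3 held CAGCTG at -43 to -38 and CACCTG at -117 to -112. The Elavl4 window held CAGCTG at -46 to -41, CATCTG at -39 to -34 and CACCTG at -100 to -95. Srrm4 held CATCTG at -158 to -153, and the Nova2 window, with 71.2% G and C, held no match. Among 32851 promoter windows of the same length, 4271 held CAGCTG, 4745 (14.4%) held CATCTG and 5657 (17.2%) held CACCTG. Of the members whose windows are not printed, Nova1 held CAGCTG at -193 to -188 and the second Rbfox1 start held it at -72 to -67. The 6 windows of Elavl2, which was also higher in Merkel cells at both sites, held no E-box of the 3. The 4 printed windows are thus a selection. Neither TTCAGCACC, the core of the element bound by the neuronal repressor Rest (in 0.301% of windows), nor AACCNGTT, bound by the epithelial Grainyhead-like factors (in 1.79%), was found in any member's window. These matches describe letters and are not evidence of binding.

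**Figure D1:**
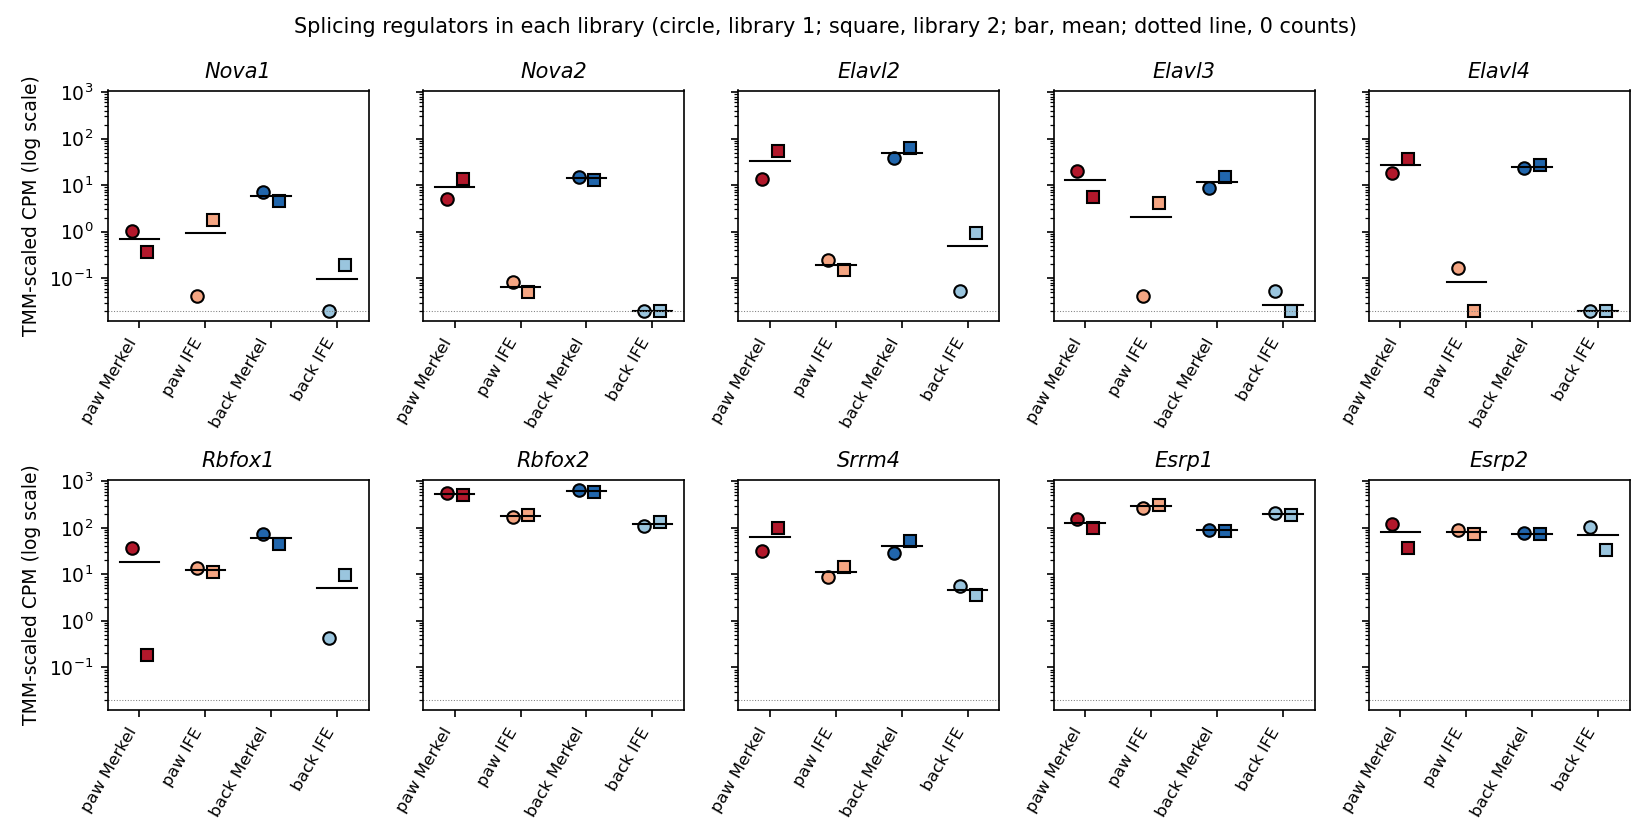
TMM-scaled CPM (log scale) of the 10 splicing regulators in each of the 8 libraries, by group; circles are library 1, squares library 2, bars the group mean, and the dotted line marks 0 counts. Rbfox2 lies at 515 to 643 CPM in Merkel libraries and 111 to 190 CPM in IFE libraries, whereas Nova2 and Elavl4 sit at or near 0 in every IFE library.

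Elavl2, Elavl4, Nova2 and Rbfox2 were higher in Merkel than in IFE cells at both skin sites, and Elavl3 and Srrm4 passed the threshold in back skin alone. Esrp1 was lower in back Merkel cells, and Esrp2, Nova1 and Rbfox1 passed the threshold at neither site. In the paw 4 of the 10 members were higher and 0 lower at an edgeR adjusted p under 0.05, beside 6.21% of all 15151 genes called in either direction, and 6 had an unadjusted p under 0.05, beside 21.1% of all genes. In back skin 6 were higher and 1 lower, beside 15.4% of all genes, and 8 had an unadjusted p under 0.05, beside 30.5% of all genes. Without overlap between libraries, 6 members lay above and 1 below in paw Merkel cells, beside 24.8% and 28.7% of all genes, and 8 lay above and 1 below in back Merkel cells, beside 29.1% and 32.8%. The median log2 fold change of the 8 neuronal members was 2.56 in the paw, where the median of all genes was -0.04, and 6.17 in back skin (the same with Elavl4 and Nova2 at their bounds), where that of all genes was -0.06. These medians describe genes chosen with earlier results in view.

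**Figure D2:**
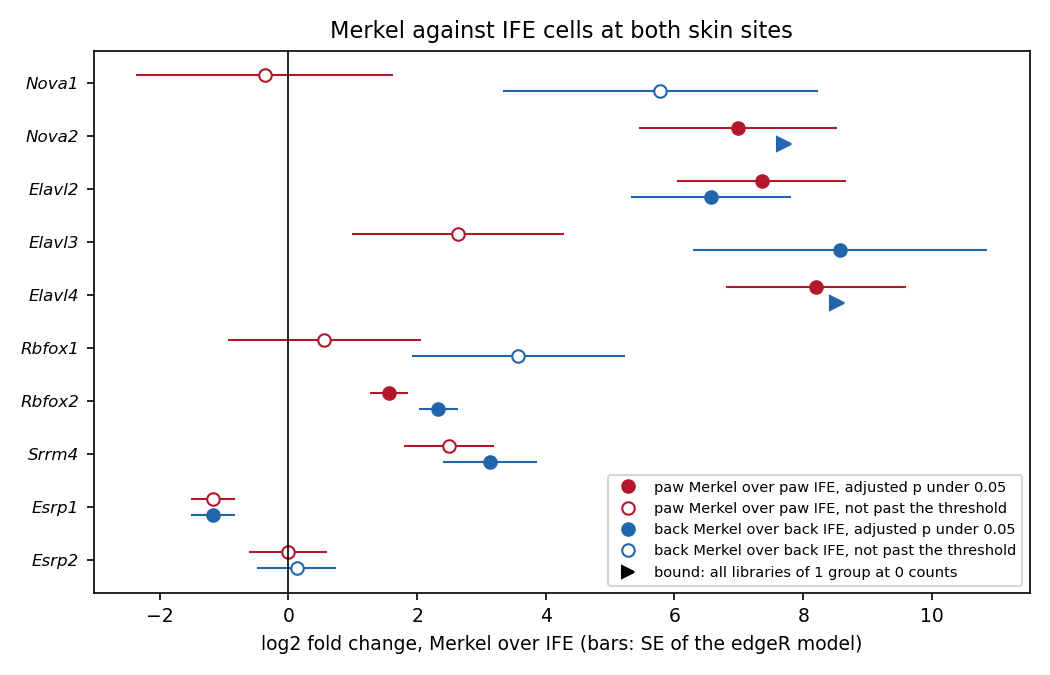
Log2 fold change of each regulator, Merkel over IFE, in the paw (red) and in back skin (blue), with bars for the standard error of the edgeR model. Filled symbols are past an adjusted p of 0.05, and triangles are lower bounds where both IFE libraries had 0 counts; the 2 Esrp1 points lie at -1.17 and every neuronal member but paw Nova1 lies above 0.

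Among the neuronal Elavl genes, Elavl4 (chromosome 4, 110203722 to 110351909, minus strand, GRCm38) gave the plainest separation. Paw Merkel libraries 1 and 2 had 18.5 and 35.9 CPM of Elavl4, against 0.163 and 0 CPM in paw IFE libraries. The values in back skin were 23.1 and 26.5 CPM in Merkel libraries, against 0 and 0 CPM in IFE libraries. Every Merkel library thus lay far above every IFE library. For Elavl4 the paw log2 fold change was 8.20 (SE 1.403, edgeR adjusted p = 0.00671), and it passed the threshold in 16 of the 17 alternative settings run. In back skin, with back IFE cells set to a floor of 3 counts in all, Elavl4 was at least 369-fold higher (edgeR adjusted p = 0.00163). All 4 Elavl4 counts of paw IFE cells came from library 1, and without that library Elavl4 stayed past the threshold (edgeR adjusted p = 0.00528).

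Elavl2 (chromosome 4, 91250763 to 91400785, minus strand) had the highest mean FPKM of the 3 in both Merkel groups. It measured 13.5 and 53.8 CPM in paw Merkel libraries and 0.244 and 0.148 CPM in paw IFE libraries. In back skin it measured 38.0 and 62.0 CPM in Merkel libraries and 0.0543 and 0.954 CPM in IFE libraries. The groups did not overlap, although the paw Merkel libraries differed from each other several-fold. Its log2 fold change was 7.36 in the paw (SE 1.31, edgeR adjusted p = 0.00671) and 6.57 in back skin (SE 1.25, edgeR adjusted p = 0.00484). Under the 17 alternative settings run, the paw value of Elavl2 passed the threshold in 15 and the back value in 17. Leaving out paw Merkel library 1 gave a paw value of 8.02, and leaving out library 2 gave 6.04. Of the 26 Elavl2 counts of back IFE cells 25 came from library 2, without which the log2 fold change in back skin was 9.66, and it was 5.70 without back IFE library 1.

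Elavl3 (chromosome 9, 22015005 to 22052023, minus strand) was less even across the libraries. Paw Merkel libraries had 20.03 and 5.62 CPM of Elavl3, and paw IFE libraries 0.0407 and 4.10 CPM. In back skin Merkel libraries had 8.52 and 15.0 CPM, and IFE libraries 0.0543 and 0 CPM. Paw IFE library 2, with 83 counts, came close to paw Merkel library 2, with 61 counts from fewer reads. The paw log2 fold change was 2.63 (SE 1.64, edgeR adjusted p = 0.400). With paw IFE library 2 left out it was 8.07, and with paw Merkel library 1 left out it was 1.41. In back skin Elavl3 was higher, with 266 counts in Merkel libraries against 1 count in IFE libraries, a ratio of 508 (95% exact interval 90.3 to 20128, counting error only; edgeR adjusted p = 0.0269). That call was lost without back Merkel library 2 (edgeR adjusted p = 0.0662) and without back IFE library 2 (edgeR adjusted p = 0.103). The interaction of cell type and site for Elavl3 did not pass (log2 difference -5.94, SE 2.57, edgeR adjusted p = 0.541).

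Elavl1, the widely expressed relative of these genes, measured 199 and 120 CPM in paw Merkel libraries, against 156 and 127 CPM in paw IFE libraries. In back skin it measured 187 and 134 CPM in Merkel libraries, against 130 and 123 CPM in IFE libraries. Its log2 fold changes were 0.18 (SE 0.37) and 0.34 (SE 0.37), with edgeR adjusted p-values of 0.838 and 0.569. On the length-scaled FPKM values, Elavl2, Elavl3 and Elavl4 together made up 25.2% and 52.6% of the RNA of the 4 Elavl genes in paw Merkel libraries, against 0.394% and 4.92% in paw IFE libraries. Their share in back skin was 33.0% and 46.1% in Merkel libraries, against 0.138% and 0.412% in IFE libraries.

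**Figure D3:**
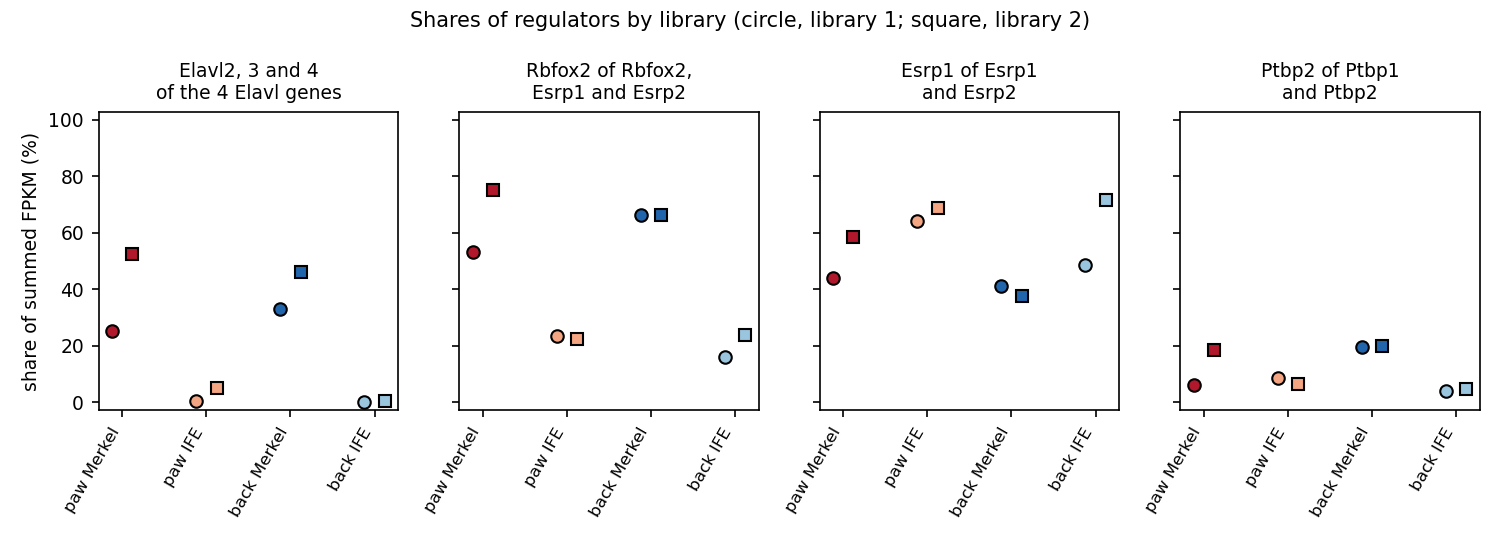
Share of summed FPKM (percent) held by the named genes in each of the 8 libraries; circles are library 1 and squares library 2. The neuronal Elavl share is 25.2% to 52.6% in Merkel libraries and 0.138% to 4.92% in IFE libraries, and the Rbfox2 share of Rbfox2, Esrp1 and Esrp2 is 53.1% to 75.1% in Merkel libraries and 15.9% to 23.6% in IFE libraries.

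Of the Nova genes, which code for neuronal splicing factors first known as antigens of a paraneoplastic movement disorder, Nova2 was higher in Merkel cells at both sites. Nova2 (chromosome 7, 18925888 to 18965319, plus strand) measured 5.08 and 13.5 CPM in paw Merkel libraries and 0.0815 and 0.0493 CPM in paw IFE libraries. There were 14.9 and 12.99 CPM in back Merkel libraries and 0 and 0 CPM in back IFE libraries. The Merkel and IFE libraries did not overlap at either site. With 252 counts in paw Merkel and 3 in paw IFE libraries, the ratio was 119 (95% exact interval 40.2 to 579, counting error only). The paw log2 fold change of Nova2 was 6.99 (SE 1.54, edgeR adjusted p = 0.0248), and it passed the threshold in 10 of the 17 alternative settings run. Leaving out paw Merkel library 2 (edgeR adjusted p = 0.0517), paw IFE library 1 (0.151) or paw IFE library 2 (0.187) ended this call. With the same floor, Nova2 was at least 208-fold higher in back skin (edgeR adjusted p = 0.00405). In GENCODE vM21 31.68% of the exonic bases of Nova2 are shared with the antisense gene Gm26821. The strand setting of the counts is not given in the sources used here, so reads of the pair cannot be told apart.

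Nova1 (chromosome 12, 46694517 to 46818929, minus strand) was low in most libraries. It measured 1.05 and 0.369 CPM in paw Merkel libraries and 0.0407 and 1.83 CPM in paw IFE libraries, which overlapped. Back Merkel libraries had 7.07 and 4.59 CPM and back IFE libraries 0 and 0.191 CPM, which did not. Nova1 had a log2 fold change of -0.37 in the paw (SE 2.00, edgeR adjusted p = 0.944) and 5.78 in back skin (SE 2.44, edgeR adjusted p = 0.135). Single libraries moved both values: leaving out paw IFE library 2 turned the paw value to 3.92 and leaving out paw Merkel library 1 gave -1.35, while the back value was 9.62 without back IFE library 2, which holds all 5 counts of its group, and 4.88 without back IFE library 1. The back value passed the threshold with DESeq2 (adjusted p = 0.0231) and with limma-trend on log2 CPM (adjusted p = 0.0408). Its depth was small, with 22 and 4 counts in paw Merkel libraries and 93 and 47 in back Merkel libraries.

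Rbfox2 (chromosome 15, 77078990 to 77307004, minus strand), the Rbfox gene expressed outside neurons as well as in them, was the most abundant member in Merkel cells. Paw Merkel libraries had 552 and 515 CPM of Rbfox2, and paw IFE libraries 170 and 190 CPM. Its level in back skin was 643 and 586 CPM in Merkel libraries, and 111 and 134 CPM in IFE libraries. The 4 Merkel libraries were all above the 4 IFE libraries, and replicates lay close together. Its log2 fold change was 1.57 in the paw (SE 0.30, edgeR adjusted p = 0.00930) and 2.33 in back skin (SE 0.30, edgeR adjusted p = 0.000495). The paw call was lost without paw IFE library 1 (1.49, edgeR adjusted p = 0.0993) or paw IFE library 2 (1.65, edgeR adjusted p = 0.0686).

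Rbfox1 (chromosome 16, 5885355 to 7411526, plus strand), which is best known from neurons and muscle, varied most between replicates. Paw Merkel libraries had 36.5 and 0.184 CPM of Rbfox1, from 762 and 2 counts, and paw IFE libraries 13.7 and 11.3 CPM. Back Merkel libraries had 75.2 and 44.7 CPM, and back IFE libraries 0.434 and 9.62 CPM. In the paw the 2 Merkel libraries lay on either side of the IFE libraries, whereas in back skin the groups did not overlap. The log2 fold change was 0.56 in the paw (SE 1.501, edgeR adjusted p = 0.879), and without paw Merkel library 1 it was -6.05 (edgeR adjusted p = 0.0477). In back skin it was 3.57 (SE 1.66, edgeR adjusted p = 0.171), and without back IFE library 2 it was 7.08 (edgeR adjusted p = 0.0421). The back value passed the threshold in only 6 of the 17 alternative settings run. DESeq2 called it (adjusted p = 0.0278), as did edgeR without the count filter (adjusted p = 0.000312) and limma on log2(FPKM + 1) (adjusted p = 0.0326). It also passed the threshold there without paw Merkel library 1 (edgeR adjusted p = 0.0362) or paw Merkel library 2 (edgeR adjusted p = 0.0268).

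Rbfox3, the third gene of the family and the source of the neuronal antigen NeuN, measured 4.79 and 1.48 CPM in paw Merkel libraries, against 0.326 and 0 CPM in paw IFE libraries. It measured 1.83 and 2.74 CPM in back Merkel libraries, against 0 and 0 CPM in back IFE libraries. The groups did not overlap, but Rbfox3 passed the edgeR threshold at neither site (adjusted p = 0.342 and 0.0809). Its back value passed with DESeq2 (adjusted p = 0.0148) and limma-trend on log2 CPM (adjusted p = 0.0385). Rbfox2 made up 92.1% and 99.5% of the FPKM of the 3 Rbfox genes in paw Merkel libraries and 86.6% and 90.2% in back Merkel libraries. Its share was 93.6% and 94.2% in paw IFE libraries and 99.6% and 93.0% in back IFE libraries.

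Srrm4 (chromosome 5, 116439275 to 116591817, minus strand), the activator of neuronal microexons, was present in every library. It measured 32.3 and 97.0 CPM in paw Merkel libraries and 8.68 and 14.3 CPM in paw IFE libraries. In back skin it measured 28.8 and 52.5 CPM in Merkel libraries and 5.64 and 3.63 CPM in IFE libraries. Merkel libraries lay above IFE libraries at both sites. In back skin the log2 fold change was 3.13 (SE 0.73, edgeR adjusted p = 0.0140). It missed the threshold when back Merkel library 2 (2.63, edgeR adjusted p = 0.0728) or back IFE library 2 (2.84, edgeR adjusted p = 0.0725) was left out. In the paw it was 2.49 (SE 0.70) and missed the threshold (edgeR adjusted p = 0.0616), whereas DESeq2 called it (adjusted p = 0.00391). Without paw Merkel library 1 the paw value was 3.06 (edgeR adjusted p = 0.0116), and without paw Merkel library 2 it was 1.49. Without back IFE library 1 or 2 the paw value also passed (edgeR adjusted p = 0.0385 and 0.0423). The difference between the 2 sites was not past the threshold (interaction log2 difference -0.64, SE 0.95, edgeR adjusted p = 0.912).

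Srrm3, a relative of Srrm4 that also acts on neuronal microexons, had 0.671 and 0 CPM in paw Merkel libraries, against 0 and 0 CPM in paw IFE libraries. It had 3.96 and 3.13 CPM in back Merkel libraries, against 0.109 and 0 CPM in back IFE libraries. The back ratio was 80.2 (95% exact interval 21.5 to 673, counting error only; edgeR adjusted p = 0.192), and limma-trend on log2 CPM called it (adjusted p = 0.0323). The paw value did not pass (edgeR adjusted p = 0.305).

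The epithelial regulators behaved unlike each other. Esrp1 (chromosome 4, 11331933 to 11386783, minus strand) measured 158 and 102 CPM in paw Merkel libraries and 271 and 312 CPM in paw IFE libraries. Back Merkel libraries had 91.0 and 85.4 CPM and back IFE libraries 209 and 189 CPM. Every Merkel library was below the IFE libraries of its site, and none was near 0. Its log2 fold change was -1.17 at both sites, with an SE of 0.34 at each. The back value passed the threshold (edgeR adjusted p = 0.0377) and the paw value did not (edgeR adjusted p = 0.0668). The interaction for Esrp1 was near 0 (log2 difference 0.00356, SE 0.47, edgeR adjusted p = 1).

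The Esrp1 call in back skin was a close one. It was lost without paw IFE library 1 (edgeR adjusted p = 0.0637), paw IFE library 2 (0.0663), back Merkel library 1 (0.122), back Merkel library 2 (0.181), back IFE library 1 (0.155) or back IFE library 2 (0.0893). The log2 fold change stayed between -1.25 and -1.10 in these fits. In the paw the value without paw Merkel library 1, in which the keratinocyte markers stood at 25.4% of their paw IFE mean, was -1.54 (edgeR adjusted p = 0.01995). Without paw Merkel library 2, in which they stood at 6.45%, it was -0.89. DESeq2 (adjusted p = 0.0242) and limma-trend on log2 CPM (adjusted p = 0.0473) also called paw Esrp1. The part that keratinocyte RNA has in the Esrp1 level of Merkel libraries was not tested.

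Esrp2 (chromosome 8, 106130319 to 106136974, minus strand) measured 124 and 37.7 CPM in paw Merkel libraries and 88.3 and 73.7 CPM in paw IFE libraries. Back Merkel libraries had 78.3 and 72.0 CPM and back IFE libraries 104 and 33.7 CPM. The groups overlapped at both sites. Its log2 fold change was -0.0024 in the paw (SE 0.61, edgeR adjusted p = 1) and 0.13 in back skin (SE 0.61, edgeR adjusted p = 0.918). Leaving out paw Merkel library 1 gave -1.12 in the paw and leaving out library 2 gave 0.61, and the back value was 1.16 without back IFE library 1 and -0.47 without back IFE library 2. Standard errors of this size leave changes of about the size of that of Esrp1 undetectable.

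Within the libraries, the order of the members by FPKM, which compares genes per length, differed between the cell types. Rbfox2 came first in Merkel cells, with 124 ± 23.3 FPKM in the paw and 129 ± 4.71 FPKM in back skin (SD over 2 libraries), apart from the next gene, Esrp2. Esrp1 came first in IFE cells, with 73.6 ± 13.9 FPKM in the paw and 49.3 ± 4.13 FPKM in back skin, where it overlapped Esrp2 in its libraries. Esrp2 was second in mean FPKM in all 4 groups, overlapping the third gene, Rbfox2, in back IFE cells, at 36.2 ± 23.8 FPKM in Merkel and 36.8 ± 1.59 FPKM in IFE cells of the paw, and at 39.8 ± 0.19 FPKM in Merkel and 36.7 ± 25.7 FPKM in IFE cells of the back.

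In paw Merkel cells Esrp1 (34.3 ± 10.1 FPKM) overlapped Esrp2. Srrm4 (12.4 ± 9.34), Elavl2 (6.18 ± 6.11), Elavl4 (4.75 ± 2.93), Rbfox1 (3.40 ± 4.74) and Elavl3 (3.09 ± 2.17) each overlapped the next in this order. The last of them overlapped Nova2 (1.84 ± 1.44), which lay apart from Nova1. Back Merkel cells had 15.7 ± 5.30 FPKM of Rbfox1, 9.67 ± 3.04 of Elavl2, 8.24 ± 3.27 of Srrm4, 4.26 ± 0.816 of Elavl4, 3.25 ± 1.41 of Elavl3 and 2.73 ± 0.0915 of Nova2. Of these, Elavl2 and Srrm4 overlapped, as did Elavl4, Elavl3 and Nova2 in turn. Nova1 was lowest in both Merkel groups, at 0.0750 ± 0.0568 FPKM in the paw and 0.689 ± 0.285 FPKM in back skin. After Esrp1, Esrp2 and Rbfox2, no member exceeded 2.06 ± 0.117 FPKM (Rbfox1) in paw IFE cells or 0.906 ± 0.459 FPKM (Srrm4) in back IFE cells.

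Set against both Esrp genes, Rbfox2 held 53.1% and 75.1% of the summed FPKM of the 3 in paw Merkel libraries, against 23.5% and 22.2% in paw IFE libraries. The Rbfox2 share was 66.3% and 66.3% in back Merkel libraries, against 15.9% and 23.6% in back IFE libraries. Merkel and IFE libraries were apart on this share at both sites. Between the Esrp genes, Esrp1 held 43.9% and 58.4% in paw Merkel libraries, against 64.1% and 68.8% in paw IFE libraries. It held 41.0% and 37.4% in back Merkel libraries, against 48.7% and 71.5% in back IFE libraries.

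The comparison of skin sites asks whether Merkel cells of the paw, where skin is largely glabrous, differ from those of hairy back skin. No member passed the edgeR threshold between paw and back Merkel cells, between paw and back IFE cells or in the interaction of cell type and site, and DESeq2 and limma-trend called 0 in each. Of all genes, 0.185% were called between paw and back Merkel cells (0.178% higher and 0.0066% lower in the paw), 0% between paw and back IFE cells and 0% in the interaction. At an unadjusted p under 0.05 the members numbered 0, 1 and 1, the last 2 being Elavl3, beside 10.2%, 4.24% and 9.01% of all genes. Nova1 showed the largest gap between the Merkel groups, at 1.05 and 0.369 CPM in paw and 7.07 and 4.59 CPM in back Merkel libraries (log2 fold change -3.01, SE 2.14, edgeR adjusted p = 0.658). Rbfox1 and Rbfox2 also lay lower in both paw Merkel libraries, with log2 fold changes of -1.70 and -0.20, and Esrp1 lay higher, at 0.56. The Rbfox1 value was -8.28 when paw Merkel library 1 was left out and -0.71 when library 2 was. In all, 1 member lay above and 3 below without overlap, beside 18.2% and 17.2% of all genes. Between IFE cells 5 lay above and 0 below in the paw, beside 20.2% of all genes in each direction. These comparisons share their Merkel and IFE libraries with the ones above.

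Sensory neurons could carry the same regulators, so their markers were read beside them. Of 13 listed, 12 were in the files, and Avil and Pou4f1 held nearly all of the signal, with 188 and 282 CPM in paw Merkel libraries and 724 and 647 CPM in back Merkel libraries, against 1.67 to 6.66 CPM in IFE libraries. The other 10 summed to 6.23 and 8.48 CPM in paw Merkel and 14.8 and 2.05 CPM in back Merkel libraries, and to 0.04 to 2.47 CPM in IFE libraries. Of the 6 sensory markers that could be tested, 2 were higher in paw Merkel cells (Avil and Pou4f1) and 3 in back Merkel cells, the third being Tlx3, a transcription factor of sensory neurons. Tlx3 measured 3.12 and 1.94 CPM in paw Merkel and 8.90 and 1.95 CPM in back Merkel libraries, against 0 CPM in every IFE library (edgeR adjusted p = 0.0947 in the paw and 0.0413 in back skin). Scn11a, a sodium channel of pain-sensing neurons, had 2.78 and 5.62 CPM in paw Merkel libraries, against 0 and 0.0987 CPM in paw IFE libraries (edgeR adjusted p = 0.214). Of the 12, Prph, a filament of peripheral neurons, Mrgprd and Prdm12 were at 0 in all 4 Merkel libraries. Prph was found in IFE libraries instead, with 20 and 48 counts in the paw and 0 and 1 in back skin. Prdm12 had 5 counts in paw IFE library 1. Summed Schwann cell markers ranged from 38.7 to 123 CPM in Merkel libraries and from 66.0 to 144 CPM in IFE libraries, mostly Mbp and Erbb3. Sox10, another Schwann marker, had 49 and 0 counts in paw Merkel and 13 and 3 counts in back Merkel libraries, against 0 in every IFE library. Of the 4 Schwann markers that could be tested, 0 passed at either site. Melanocyte markers summed to 126 to 213 CPM in Merkel and 8.56 to 16.8 CPM in IFE libraries, mostly Kit. Mitf, another of the 7, measured 11.3 and 21.2 CPM in paw Merkel libraries, against 2.89 and 4.54 CPM in paw IFE libraries, and 16.3 and 17.1 CPM in back Merkel libraries, against 11.2 and 5.76 CPM in back IFE libraries, and passed at neither site (edgeR adjusted p = 0.199 and 0.478). Immune markers summed to 0.645 to 6.71 CPM in Merkel and 30.2 to 798 CPM in IFE libraries, fibroblast markers to 77.9 to 170 and 92.6 to 435 CPM, endothelial markers to 0.383 to 11.5 and 1.53 to 3.89 CPM, and skeletal muscle markers to 6.85 to 52.1 and 0.977 to 23.6 CPM. In back skin 1 fibroblast marker was higher in Merkel cells, Col1a2, with 2164 and 757 counts against 399 and 758 in IFE libraries. There 2 were lower, beside 7.99% and 7.45% of all genes higher and lower. Pecam1, an endothelial marker, had 115 and 102 counts in back Merkel and 40 and 11 in back IFE libraries. It had 0 and 0 in paw Merkel and 41 and 24 in paw IFE libraries, and no endothelial marker passed at either site. The part of these cells in the members' levels was not tested.

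A wider list held 24 other splicing regulators, among them genes abundant in every library, such as Ptbp3 and Srsf11. Of the 24, 23 could be tested, and the list moved in part with the members. In the paw 5 were higher and 1 lower in Merkel cells, and in back skin 8 were higher and 3 lower, beside 4.28% and 1.93% of all genes higher and lower in the paw and 7.99% and 7.45% in back skin. The median log2 fold change of the list was 0.41 in the paw and 0.16 in back skin. Left-out libraries moved the count of higher genes in the paw to 2 (without paw Merkel library 2 or paw IFE library 1) or 3 (without paw IFE library 2), and in back skin to 5 (without back IFE library 1). The lower count in the paw was 2 without paw Merkel library 1, and in back skin it was 1 without back Merkel library 2. In the paw fit of the paw groups alone, 2 were higher.

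Rbm24, a muscle and sensory-cell splicing factor, stood furthest apart, with 361 and 227 CPM in paw Merkel libraries, against 0.163 and 0.0987 CPM in paw IFE libraries. It measured 203 and 197 CPM in back Merkel libraries, against 0 and 0.114 CPM in back IFE libraries. The log2 fold change of Rbm24 was 11.04 in the paw (SE 0.72, edgeR adjusted p = 6.18e-06). In back skin, with 3 counts in the IFE libraries, the ratio was 2978 (95% exact interval 1018 to 14444, counting error only; edgeR adjusted p = 6.42e-06).

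Msi2, a Musashi RNA-binding protein of progenitor cells, measured 1839 and 1645 CPM in paw Merkel libraries, against 349 and 324 CPM in paw IFE libraries. Its log2 fold changes were 2.37 in the paw and 2.22 in back skin (edgeR adjusted p = 0.000731 and 0.000633). Khdrbs3, a STAR-family splicing factor, had log2 fold changes of 2.97 and 5.25 (edgeR adjusted p = 0.0259 and 0.000986). Celf5, a neuronal CELF protein, had 5.15 and 7.06 (edgeR adjusted p = 0.0334 and 0.00587). The paw calls of both were lost without paw Merkel library 2 or paw IFE library 1, and that of Khdrbs3 also without paw IFE library 2. Celf2, named after its value was seen, was the fifth gene higher in the paw (log2 fold change 1.69, edgeR adjusted p = 0.0498), a call lost without 5 of the 8 libraries in turn.

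Mbnl1, which favours the splicing patterns of mature muscle and opposes CELF proteins, was lower in Merkel cells at both sites. It measured 201 and 241 CPM in paw Merkel libraries, against 703 and 721 CPM in paw IFE libraries (log2 fold change -1.69, edgeR adjusted p = 0.00757). In back Merkel libraries Mbnl1 had 196 and 193 CPM, against 503 and 697 CPM in back IFE libraries (log2 fold change -1.62, edgeR adjusted p = 0.00481). In back skin Qk, the quaking RNA-binding protein, and Mbnl3 were lower too, with log2 fold changes of -1.49 and -1.38 (edgeR adjusted p = 0.00590 and 0.0122). Both calls were lost without back Merkel library 2, and that of Mbnl3 also without back IFE library 2.

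Ptbp1 represses neuronal exons in non-neuronal cells, and its relative Ptbp2 replaces it in developing neurons. Ptbp1 measured 301 and 131 CPM in paw Merkel libraries, against 251 and 208 CPM in paw IFE libraries, and 169 and 143 CPM in back Merkel libraries, against 180 and 173 CPM in back IFE libraries. Its log2 fold changes of -0.08 and -0.18 did not pass (edgeR adjusted p = 0.936 and 0.802), and 20.74% of its exonic bases are shared with other genes. Ptbp2 measured 67.0 and 124 CPM in paw Merkel libraries, against 91.96 and 51.6 CPM in paw IFE libraries (log2 fold change 0.41, edgeR adjusted p = 0.663). It was higher in back skin, at 178 and 128 CPM in Merkel libraries, against 34.1 and 43.4 CPM in IFE libraries (log2 fold change 1.98, edgeR adjusted p = 0.0146). That call was lost without back Merkel library 1 (edgeR adjusted p = 0.0721) or back IFE library 1 (edgeR adjusted p = 0.0807). Ptbp2 held 19.6% and 19.8% of the FPKM of the pair in back Merkel libraries, against 3.81% and 4.597% in back IFE libraries. In the paw its share was 5.98% and 18.6% in Merkel libraries, against 8.65% and 6.41% in IFE libraries, which overlapped.

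**Figure D4:**
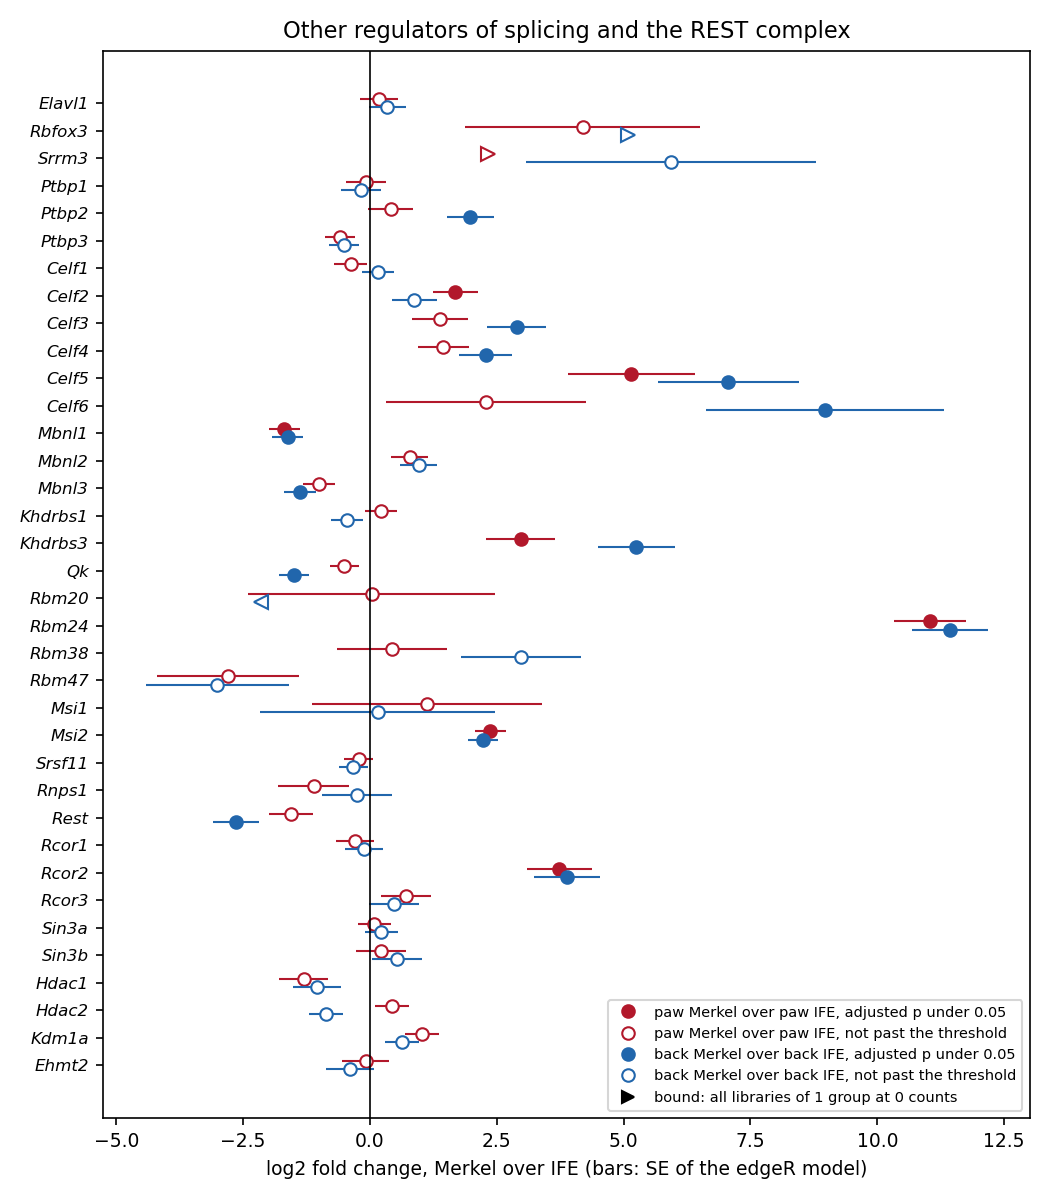
Log2 fold change, Merkel over IFE, of relatives of the members, other splicing regulators and genes of the REST complex, in the paw (red) and in back skin (blue), with bars for the standard error. Filled symbols are past an edgeR adjusted p of 0.05 and triangles are bounds where all libraries of 1 group had 0 counts; Rbm24 stands at 11.04 in the paw, and Mbnl1 is below 0 at both sites.

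General splicing factors are the SR and hnRNP proteins and the branch point and 3' splice site factors that act in every cell. Of 30 tested, 0 passed the edgeR threshold in the paw, beside 6.21% of all genes (4 at an unadjusted p under 0.05, beside 21.1%; 1 by DESeq2 and 0 by limma-trend), with a median log2 fold change of 0.00. In back skin 4 were lower and 0 higher, beside 7.45% and 7.99% of all genes, and 10 had an unadjusted p under 0.05, beside 30.5% of all genes, with a median log2 fold change of -0.48. These were Hnrnpf (-1.82, edgeR adjusted p = 0.00598), Hnrnpa2b1 (-1.32, edgeR adjusted p = 0.0134), Srsf7 (-1.06, edgeR adjusted p = 0.0332) and Srsf3 (-1.13, edgeR adjusted p = 0.0348). Hnrnpf stayed past the threshold without any 1 library, whereas leaving out 1 library brought the number of lower genes to 1 without back Merkel library 1, back Merkel library 2 or back IFE library 2. It was 2 without paw IFE library 1, paw IFE library 2 or back IFE library 1.

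Rest, the repressor of neuronal genes in non-neuronal cells, has an isoform of reduced activity that Srrm4 promotes in neurons, which gene counts cannot separate. Rest measured 31.5 and 30.2 CPM in paw Merkel libraries, against 90.9 and 90.7 CPM in paw IFE libraries. Back Merkel libraries had 18.9 and 11.2 CPM, against 101 and 86.6 CPM in back IFE libraries. The groups were apart at both sites. Its log2 fold change was -1.56 in the paw (SE 0.44, edgeR adjusted p = 0.0607) and -2.64 in back skin (SE 0.46, edgeR adjusted p = 0.00294). Of the 10 genes of the REST complex list, Rcor2, a corepressor that is also found in neural progenitors, was the 1 higher at both sites, with log2 fold changes of 3.73 and 3.88 (edgeR adjusted p = 0.00496 and 0.00220), the back value being 5.28 without back IFE library 2. In back skin Rest was the 1 lower gene of the list, and no other gene of it passed, beside 4.28% of all genes higher in the paw and 7.99% higher and 7.45% lower in back skin.

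Genes whose exons these regulators are known to set were read as gene totals alone. Of 8 Esrp targets, Fgfr2, whose epithelial exon the Esrp proteins include, was lower in Merkel cells in both comparisons, beside 1.93% and 7.45% of all genes lower, and the other 7 did not pass. It measured 380 and 558 CPM in paw Merkel libraries, against 2337 and 2007 CPM in paw IFE libraries (log2 fold change -2.21, edgeR adjusted p = 0.00432). In back skin it measured 129 and 219 CPM in Merkel libraries, against 2316 and 2883 CPM in IFE libraries (log2 fold change -3.90, edgeR adjusted p = 9.18e-05). Cd44, named after its values were seen, missed the threshold in back skin with all libraries in edgeR (log2 fold change 0.98, edgeR adjusted p = 0.0737). It passed there by DESeq2 (adjusted p = 0.0398), without the count filter, in the fit of the back groups alone, on filtered log2 FPKM and without either paw Merkel library. It missed with RLE size factors, limma-trend on log2 CPM, the replicate block, unfiltered FPKM and any other library left out. In the paw Cd44 measured 46.8 and 87.8 FPKM in Merkel libraries, against 92.1 and 90.4 FPKM in IFE libraries.

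Among 10 neuronal targets, of which 8 could be tested, 2 were higher in the paw and 4 in back skin, beside 4.28% and 7.99% of all genes, with 0 lower at either site. The median log2 fold change of this list was 1.52 in the paw and 2.18 in back skin (2.06 with genes at their bound). Cacna1b, the pore of the N-type calcium channel, measured 87.0 and 246 CPM in paw Merkel libraries, against 0.326 and 1.43 CPM in paw IFE libraries (log2 fold change 7.58, edgeR adjusted p = 0.000231). It measured 284 and 369 CPM in back Merkel libraries, against 0.380 and 0.153 CPM in back IFE libraries (log2 fold change 10.28, edgeR adjusted p = 5.02e-05). Unc13b, a vesicle priming protein, had log2 fold changes of 2.51 and 3.11 (edgeR adjusted p = 0.0182 and 0.00337), and its paw call was lost without paw Merkel library 2 (1.49, edgeR adjusted p = 0.117), paw IFE library 1 or paw IFE library 2. Apbb1, an adaptor of the amyloid precursor protein, and Ank3, the scaffold of the axon initial segment, were the others in back skin (5.56 and 1.24, edgeR adjusted p = 0.0396 and 0.0422). Without back Merkel library 1, back Merkel library 2 or back IFE library 1 the count of higher genes in back skin was 2, and also without paw IFE library 2. With the replicate number as a block Apbb1 missed the threshold (edgeR adjusted p = 0.0605).

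The genes most like each called member across the 8 libraries were found by the root mean square (RMS) difference of their centred log2 CPM. For Nova2 these were Piezo2, the channel of touch (0.26), Ackr1, an atypical chemokine receptor (0.27), and Cnpy1 (0.35). Elavl4 was nearest to Gpr85, an orphan receptor (0.30), and to the nicotinic receptor subunits Chrnb4 (0.39) and Chrna3 (0.41). Elavl2 was nearest to the integrin Itga8 (0.32), the nicotinic subunit Chrna2 (0.34) and Slain1os (0.44). Srrm4 was nearest to the synapsin Syn3 (0.42), to Unc13b (0.48) and to Asb1 (0.49). Rbfox2 was nearest to Stat3, a transcription factor of cytokine signalling (0.21), Rab11fip3 (0.22) and Wwc1 (0.24). The neighbours of Esrp1 were Jag2, a Notch ligand (0.18), Zdhhc5, a palmitoyltransferase (0.19), and Srsf7 (0.19). Elavl3 had no gene as near, its first being Dll3, an inhibitory Notch ligand (0.67), before Gpr179 (0.85) and Sema6b (0.93). These distances describe 8 libraries in 4 groups, and any gene that separates Merkel from IFE cells by a similar amount scores low.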

How the data were processed

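RNA of sorted Merkel and IFE cells was amplified and sequenced, per the labels' protocols. The authors deposited gene counts, whole numbers per gene and library, and FPKM values, which the authors had scaled to transcript length and depth; per the submitters' processing notes the build was mm10 and the tools were TopHat2 (2.0.13), featureCounts (Subread 1.4.6), Cufflinks (2.2.1) and DESeq2 (1.6.3). The gene annotation and the strand setting are not given in the sources used here. Counts were tested with edgeR 4.0.16 in R 4.3.3: filterByExpr by group (15151 genes kept), TMM scaling, 1 mean per group over all 8 libraries (4 residual degrees of freedom), the quasi-likelihood F test, and Benjamini-Hochberg adjustment over all genes tested at 0.05. CPM are TMM-scaled; FPKM served to compare genes. Standard errors come from the fold change and the F statistic. A group at 0 was set to a floor of 3 counts, and intervals and floors cover counting error only, since amplified reads are not independent molecules. Positions are from GENCODE vM21. The tests were tested on simulated data, in which DESeq2 made more false calls than edgeR or limma. Alternatives were DESeq2 1.42.0, limma 3.58.1 on log2 CPM (prior count 2) or on log2(FPKM + 1) and log2(FPKM + 0.1), RLE size factors, other filters, fits of the compared groups alone, a replicate block and each library left out. The replicate numbers carry no stated pairing. The members, gene lists and markers were chosen with earlier results of these data known. All members are named, with up to 4 genes per other list, comparison and direction of smallest adjusted p, 6 fixed relatives and the 3 nearest genes per called member.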

Additional observations from a re-analysis of the deposited data

How the results depend on the processing

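The paw count of members past the threshold was 4, and it was 2 with limma on log2(FPKM + 1), 1 with the same values unfiltered, 6 with DESeq2 or without the count filter, and 3 in the fit of the paw groups alone. Leaving out each library in turn gave 2 to 7 in the paw (2 without paw IFE library 1 or 2, and 7 without paw Merkel library 1, of which 5 higher and 2 lower). In back skin the count was 7, with 9 by DESeq2 and 5 to 8 under the other alternatives that kept every library, and 4 to 8 with each library left out (the lowest when back Merkel library 2 was out, and 5 when back IFE library 2 was out). Between skin sites and in the interaction the count stayed 0 under every alternative run; the fit of the compared groups alone was not run for the interaction. Among members called with or without the change, Rbfox1 in the paw turned its sign, with -6.05 on the log2 scale without paw Merkel library 1 and 1.54 without paw Merkel library 2, which holds 2 counts of it. Uncalled values also turned sign, among them paw Nova1 and Esrp2 at both sites. With the replicate number as a block 4 members passed in the paw and 7 in back skin, the same numbers as without it. Deviations of same-numbered libraries correlated between -0.0427 and 0.0845 across groups. With a single difference between libraries in each group, these correlations cannot settle whether same-numbered libraries were paired. DESeq2 called 2227 genes in the paw and 3963 in back skin, against 941 and 2338 by edgeR, and 2369 were called in the paw without paw Merkel library 1; without the count filter the paw number was 1920. RLE scaling moved the median fold change of all genes by 0.0596 on the log2 scale at most. For the other gene lists the same alternatives were chosen after seeing the data. Nova1, Rbfox3 and Srrm3 had too few counts for firm values.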
